A study of Mus musculus with 3 samples.

Results

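The translation initiation and elongation factors described here are the protein-coding mouse genes whose symbol starts with Eif, Eef or Pabpc, 81 of the 21900 protein-coding genes of the annotation. Membership followed from the symbol and used no measured value, but the family was chosen for description with earlier results of these data known. The measurement was CLIP, in which ultraviolet light fixes a protein to the RNA it touches and an antibody then recovers both. The protein was Tet2, an enzyme that oxidises methylated cytosine in nucleic acids. The cells were mast cells cultured from C57BL/6 bone marrow with IL-3 and SCF and checked for surface FcεRI and c-Kit, and their RNA was fragmented with RNase I. The 3 biological replicate libraries form 1 group, with no genotype, drug or time contrast, and no input or control-antibody library was used here. Each library is a list of peaks on the mouse build mm10 with a normalized height for each peak, and the peaks carry no strand.

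Translation initiation begins when eIF4F, made of the cap-binding protein eIF4E, the scaffold eIF4G and the RNA helicase eIF4A, opens the start of an mRNA. The small ribosomal subunit then arrives with eIF3, eIF1, eIF1A and the initiator tRNA carried by eIF2, and eIF5 and eIF5B complete the joining of the large subunit. eEF1A delivers each aminoacyl-tRNA, eEF2 moves the ribosome along, and the poly(A)-binding proteins link the tail of the mRNA to eIF4G. The mRNAs measured here are those that encode these proteins, so a peak in Eif4a1 concerns RNA from the Eif4a1 span and not the helicase. Since peaks carry no strand and no control library was used, a peak is placed in a gene span by position alone.

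The libraries held 3019, 2800 and 2377 peaks in replicates 1, 2 and 3. Heights were whole multiples of a fixed step, here called a height unit, and a library's heights summed to 19213, 18270 and 15431 units. The median peak of each library stood at 4 units, and the lowest at 2, 2 and 3 units. Of 15 mast cell marker genes matched in the annotation, 10 held a peak. Kit, the stem cell factor receptor, reached 12, 5 and 7 units, Gata2 reached 18, 11 and 15, and Cpa3 reached 4, 5 and 4, while Fcer1a had no peak. A peak is not a level of expression. Of the macrophage, neutrophil, lymphocyte and erythroid markers, 1 of 6, 0 of 6, 0 of 6 and 0 of 5 held a peak. With 14.1% of all protein-coding genes holding a peak, lists this short would hold few or none, so these counts say little of those cell types.

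Of the 84 Tet2 peaks of the family, 25 lay in elongation factor genes and 23 in genes of eIF4F and its cofactors. The eIF3 genes held 11, all low, and the poly(A)-binding protein genes held 9. The tall peaks lay in 4 genes: Eif4a1, Pabpc1, Eif4g1 and Eef2. A peak in at least 1 library was found in 28 of the 81 genes (34.6%), beside 14.1% of all protein-coding genes. A peak in every library was found in 9 genes (11.1%), beside 3.16% of all protein-coding genes. A locus, meaning peaks that overlap by at least 1 nt, was shared by all 3 libraries in 7 genes (8.64%), beside 2.11% of all protein-coding genes. At least 2 peaks over the libraries were found in 17 genes (21.0%), beside 7.34% of all protein-coding genes. The other 53 genes held no peak in any library. Eef2k enters the counts of 9, 7 and 17 genes only through peaks that also lie in the span of a long non-coding gene, Gm15774. No RNA level was measured in these libraries, so the part that transcript abundance plays in these counts was not tested.

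**Figure D1:**
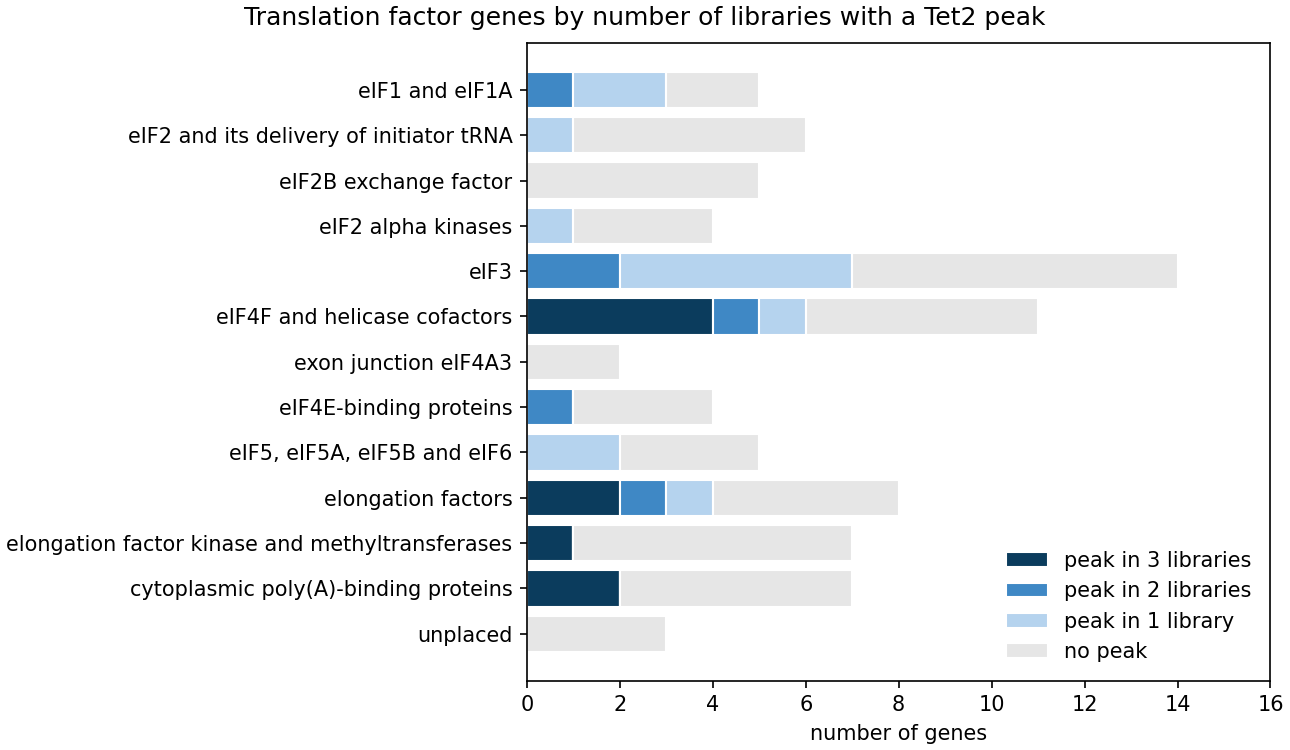
Number of translation factor genes (horizontal axis) in each factor complex (rows), divided by how many of the 3 libraries held a Tet2 peak in the gene. Genes with a peak in 3 libraries occur in 4 rows: eIF4F and helicase cofactors (4), elongation factors (2), the elongation factor kinase and methyltransferases (1) and the cytoplasmic poly(A)-binding proteins (2). The kinase gene, Eef2k, is counted in 3 libraries only through peaks that also lie in the span of Gm15774.

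The sequences at the annotated starts of 5 of these genes are shown because mRNAs of many translation factors are known to begin with a run of pyrimidines, the 5′ TOP element, through which their translation is controlled. Each line gives 10 bases before and 20 bases from the RefSeq start (GRCm38.p6, transcript strand), with the longest run of C or T in that window, the first where runs tie, in capitals.
Eef1a1 (chr9:78481705-78481734, minus strand): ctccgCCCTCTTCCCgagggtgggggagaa
Eef2 (chr10:81176621-81176650, plus strand): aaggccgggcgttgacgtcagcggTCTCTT
Eif4a1 (chr11:69672404-69672433, minus strand): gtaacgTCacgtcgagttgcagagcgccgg
Eif4g1 (chr16:20672717-20672746, plus strand): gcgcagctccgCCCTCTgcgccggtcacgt
Pabpc4 (chr4:123282901-123282930, plus strand): aaaaagaaaagaaaagaagaggaaaaaaaa
The run was 10 bases long in Eef1a1, 6 in Eif4g1 and 2 in Eif4a1. In Eef2 it was at least 6, since it reached the last base of the window and was not followed past it, as in every window counted here. The Pabpc4 window, which lies 608 nt inside the span, held no pyrimidine. A run of at least 8 pyrimidines on the transcript strand stood in 1 of the 11 windows of genes with a peak in every library (9.09%), where a gene may have several annotated starts and the one nearest the 5′ end of the span is shown. It stood in 13 of the 76 windows of the family (17.1%) and in 11.2% of all 32851 windows. Pabpc1 had no window, and 11 windows are too few to set these genes above or below the share of all genes. The annotated start need not be the start used in mast cells.

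The sequence under 1 family peak, a low one of 1 library, is shown because sequence was at hand only near annotated starts. It is no guide to the bases under other Tet2 peaks, and the strand given is that of Eef2k, since the peak carries none. The middle 30 bases of the 3-unit Eef2k peak of replicate 3 (chr7:120843535-120843564, plus strand) lay upstream of an annotated start, and 63.3% of them were G or C.
Eef2k: cctcctgggtgagccctgggccaaaactag
The sequence of the tall peaks of Eif4a1, Pabpc1, Eif4g1 and Eef2 was not analysed here, nor was the exon or intron that held each peak.

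Eif4a1 encodes the main cytoplasmic eIF4A helicase and lies at chr11:69666936-69672423 on the minus strand. Its tallest peak reached 26, 34 and 17 units in replicates 1, 2 and 3 (25.7 ± 8.50, SD, n = 3), the tallest of the family in every library. Among all protein-coding genes with a peak, that height ranked 20 of 1872, 14 of 1761 and 39 of 1537. The peak was narrow and stood near the 5′ end in all 3 libraries, with widths of 16, 8 and 11 nt and midpoints 387, 363 and 361 nt from the annotated 5′ end. It covered chr11:69672029-69672044 in replicate 1, chr11:69672057-69672064 in replicate 2 and chr11:69672057-69672067 in replicate 3. The peaks of replicates 2 and 3 shared 8 bases, and 12 bases separated them from the peak of replicate 1, so the site was not counted as a shared locus by overlap. A further locus held peaks of 3 and 6 units in replicates 1 and 2, at 1136 and 1118 nt. Replicate 1 also had a peak of 4 units at 966 nt. All 6 Eif4a1 peaks lay within 1174 nt of the 5′ end of a span of 5488 nt.

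Eif4a2, the paralogous eIF4A helicase (chr16:23107468-23114132, plus strand), carried 1 low peak in each library. It stood at 5, 4 and 4 units (4.33 ± 0.577, SD, n = 3), with midpoints at 1843, 1843 and 1839 nt from the 5′ end. The position was thus repeated to within 4 nt, although the height was close to the lowest the lists hold. Eif4a1 was taller than Eif4a2 in every library, with no overlap between their ranges.

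Eif4g1, the eIF4F scaffold (chr16:20672720-20692883, plus strand), carried its tall peak deep in the span and not at an end. The peak reached 18, 13 and 13 units (14.7 ± 2.89, SD, n = 3) at 12838, 12832 and 12832 nt from the 5′ end, and it was 25, 18 and 18 nt wide. The locus covered chr16:20685544-20685570. A companion locus upstream, at chr16:20684479-20684508, held 6, 3 and 6 units at 11774, 11773 and 11777 nt. The bounds of the tall peak were identical in replicates 2 and 3. Replicate 2 added a peak of 4 units at 13161 nt, and replicate 3 added one of 3 units at 20096 nt, which is 67 nt from the 3′ end.

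The other eIF4G genes had peaks that did not overlap between libraries. Eif4g3 (chr4:137991779-138207086), the paralog eIF4G3, held 1 peak of 3 units in each library, at 1978, 163007 and 12299 nt from the 5′ end of a span of 215308 nt. It therefore counts among the 9 genes with a peak in every library without a shared locus. Eif4g2, a relative of eIF4G without the eIF4E-binding site, held 5 units in replicate 2 and 3 units in replicate 3, at 337 and 488 nt from the end of its span with the higher coordinate, and none in replicate 1. Eif4b, a cofactor that stimulates the helicase, held 3 units in replicate 1 alone. The cap-binding proteins Eif4e, Eif4e1b, Eif4e2 and Eif4e3 and the cofactor Eif4h had no peak. Among the eIF4F genes and cofactors, 6 of 11 held a peak (54.5%), beside 14.1% of all protein-coding genes. Together these genes took 0.354%, 0.394% and 0.318% of the summed height of the libraries.

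**Figure D2:**
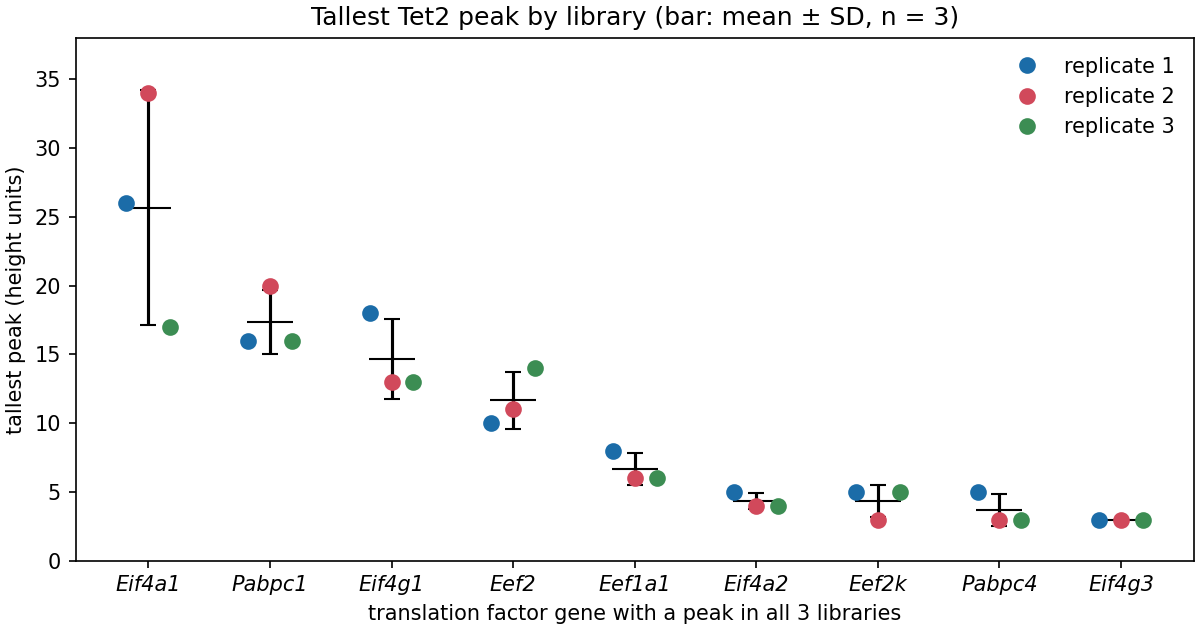
Tallest Tet2 peak in height units (vertical axis) in the 9 translation factor genes with a peak in all 3 libraries (horizontal axis). Coloured points are the libraries, and bars give the mean ± SD (n = 3). Eif4a1, Pabpc1, Eif4g1 and Eef2 reached 10 units or more in every library, and the other 5 genes stayed at 8 units or less.

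Eef2, the elongation factor that translocates the ribosome (chr10:81176631-81182509, plus strand), held the most peaks of the family, 5 in each library. Its tallest peak reached 10, 11 and 14 units (11.7 ± 2.08, SD, n = 3) at 5366, 5373 and 5363 nt from the 5′ end, or 512, 505 and 515 nt from the 3′ end. Further loci in all 3 libraries stood at 7, 3 and 4 units, with midpoints at 3724, 3720 and 3738 nt, and at 4, 5 and 3 units, with midpoints at 2103, 2089 and 2104 nt. The tallest of these loci covered chr10:81181980-81182028. Peaks 120 nt from the 3′ end had 6 and 3 units in replicates 2 and 3, and a locus at 3938 and 3946 nt had 3 and 4 units in replicates 1 and 3. Single peaks of 4 units in replicate 1 and 5 units in replicate 2 lay at 169 and 1586 nt, so the Eef2 peaks spread over most of the span.

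Eef1a1, which encodes the factor that delivers aminoacyl-tRNA (chr9:78478453-78481724, minus strand), held 3, 2 and 2 peaks. The tallest stood at 8, 6 and 6 units (6.67 ± 1.15, SD, n = 3) at 629, 602 and 624 nt from the 5′ end, in a locus shared by all 3 libraries at chr9:78481053-78481152. Replicates 1 and 2 had a second peak with identical bounds, from 72 to 122 nt past the 5′ end, at 3 units each. Replicate 1 also had 6 units at 470 nt and replicate 3 had 5 units at 369 nt. All 7 peaks of Eef1a1 thus lay within 672 nt of the 5′ end of a span of 3272 nt.

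Among the other elongation genes, Eef1g, a subunit of the exchange complex that reloads eEF1A, held 5 units in replicate 2 and 3 units in replicate 3 at different places. Eefsec, the selenocysteine elongation factor, held 3 units in replicate 2 alone, with a midpoint 437 nt from its 5′ end. Eef1a2, Eef1b2, Eef1d and Eef1e1 had no peak. The 8 elongation factor genes took 0.234%, 0.257% and 0.272% of the summed height.

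Eef2k, the kinase that phosphorylates and inhibits eEF2 (chr7:120842642-120907219, plus strand), carried a locus in all 3 libraries, at chr7:120870741-120870849, of 5, 3 and 5 units (4.33 ± 1.15, SD, n = 3). Its midpoints lay at 28162, 28153 and 28138 nt from the 5′ end, inside the span of the long non-coding gene Gm15774. The deposited peaks have no strand, so those 3 peaks cannot be credited to Eef2k or to Gm15774. They were the only 3 of the 84 family peaks that also lay in another gene's span. The Eef2k peak of replicate 3 shown above, at 3 units, lay 907 nt from the 5′ end and outside Gm15774. Eef2kmt, Eef1akmt1, Eef1akmt2, Eef1akmt3, Eef1akmt4 and Eef1aknmt, which encode methyltransferases of the elongation factors, had no peak.

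Pabpc1, the main cytoplasmic poly(A)-binding protein (chr15:36595658-36609581), held 2 peaks in each library, both in loci shared by all 3. One, at chr15:36608722-36608764, reached 16, 20 and 14 units (16.7 ± 3.06, SD, n = 3) at 840, 832 and 835 nt from the end of the span with the higher coordinate. Its partner, at chr15:36608497-36608552, reached 8, 11 and 16 units (11.7 ± 4.04, SD, n = 3) at 1057, 1076 and 1079 nt from the same end. Their order by height differed between libraries: the partner was the lower peak in replicates 1 and 2 and the taller one in replicate 3. The midpoints were 217, 244 and 244 nt apart. The strand of Pabpc1 is not given in the tables used here, so which end is the 5′ end was not analysed here.

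Pabpc4, the related inducible poly(A)-binding protein (chr4:123282303-123298925, plus strand), held 1 peak in each library, of 5, 3 and 3 units (3.67 ± 1.15, SD, n = 3). The midpoints lay at 1195, 1192 and 1184 nt from the 5′ end, and the 3 peaks shared their 3′ bound at position 123283526. Pabpc1 was taller than Pabpc4 in every library, with no overlap between their ranges. Pabpc1l, Pabpc2, Pabpc4l, Pabpc5, Pabpc6, Pabpc1l2a and Pabpc1l2b had no peak.

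**Figure D3:**
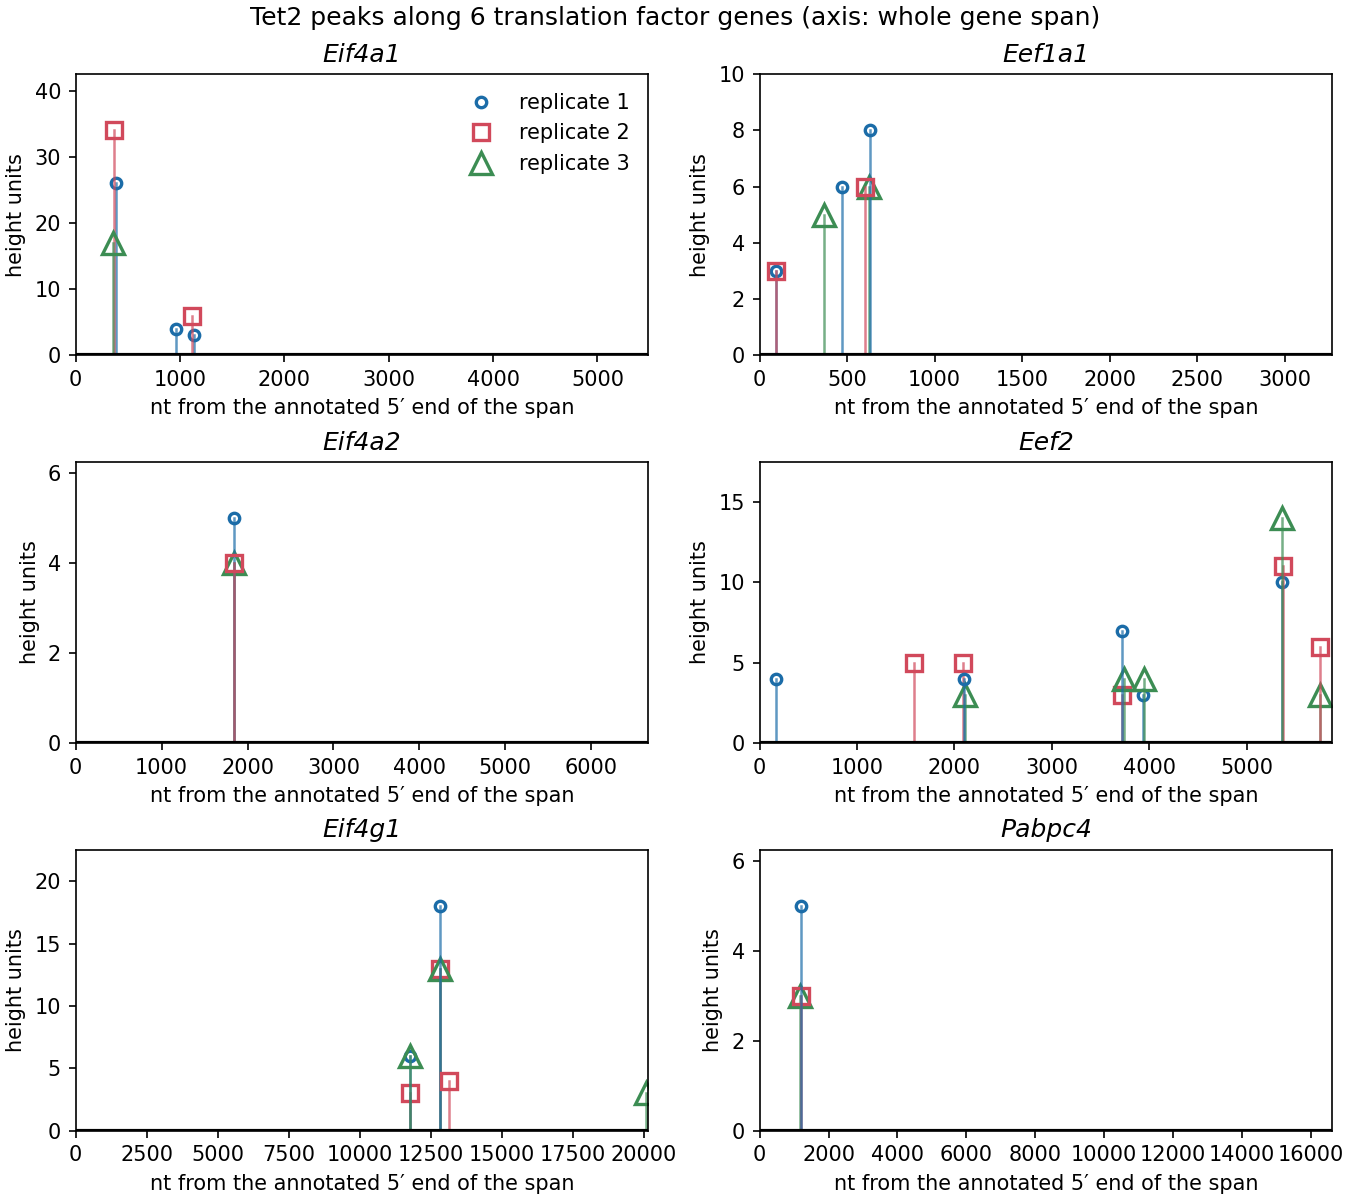
Tet2 peaks along 6 genes, with the distance in nt from the annotated 5′ end of the gene span on the horizontal axes and the peak height in units on the vertical axes. Symbols mark the libraries. Peaks of Eif4a1 and Eef1a1 gather at the 5′ end, those of Eef2 spread along the span, and the tall Eif4g1 peak stands at 12832 to 12838 nt.

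eIF3, the largest initiation factor, showed scattered low peaks and no site common to the 3 libraries. Of 14 subunit genes, 7 held a peak (50%), beside 14.1% of all protein-coding genes: Eif3a, Eif3b, Eif3c, Eif3d, Eif3g, Eif3h and Eif3i. Their 11 peaks stood at 3 or 4 units in 10 loci. Eif3h, with 4 units in replicate 2 and 3 units in replicate 3 at 1 locus, and Eif3i, with 4 units at each of 2 places in replicate 1 and 3 units at another in replicate 2, were the subunits found in 2 libraries. Eif3a and Eif3b were seen in replicate 2 alone, and Eif3c, Eif3d and Eif3g in replicate 1 alone. Eif3e, Eif3f, Eif3j1, Eif3j2, Eif3k, Eif3l and Eif3m had no peak. The share of height in eIF3 genes was 0.109%, 0.0821% and 0.0194% in replicates 1, 2 and 3.

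Of the 15 genes of eIF2, eIF2B and the eIF2 kinases, 2 held a peak (13.3%), close to the 14.1% of all protein-coding genes. The eIF2 subunits Eif2s1, Eif2s2, Eif2s3x and Eif2s3y and all 5 genes of eIF2B, the factor that reloads eIF2 with GTP, had no peak, and neither had Eif2a. Eif2d, which can deliver tRNA to the ribosome without eIF2, held 5 units in replicate 1 alone. Of the 4 kinases that phosphorylate eIF2, Eif2ak4 (the amino acid sensor GCN2) held 3 units in replicate 1, with a midpoint 170 nt from its 5′ end. Eif2ak1, Eif2ak2 and Eif2ak3 had none.

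The remaining initiation genes had low peaks. Eif1, a guardian of start codon choice, held 3 units in replicate 2, and Eif1ax held 4 units in replicate 3. Eif1ad, a relative of eIF1A, held 3 and 4 units in replicates 1 and 2 at a single locus, 367 and 375 nt from its 5′ end. Eif4ebp2, which sequesters eIF4E, held 3 units in replicate 1, 463 nt from its 3′ end, and 3 units in replicate 2 at 393 nt from its 3′ end and at 260 nt from its 5′ end. Eif5a, the hypusine-bearing factor, and Eif5b, the subunit-joining GTPase, held 3 units in replicate 1 alone. Eif1a, Eif1b, Eif4a3, Eif4a3l1, Eif4ebp1, Eif4ebp3, Eif4enif1, Eif5, Eif5a2 and Eif6 had no peak, and nor had the readthrough locus Eef1akmt4-ece2.

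By height, the 9 genes with a peak in every library fell into an upper 4 and a lower 5. Neighbours within the upper 4, ordered Eif4a1, Pabpc1, Eif4g1 and Eef2 by mean, had overlapping ranges over the libraries. Within libraries, Eif4a1 stood above Pabpc1 in 3 of 3, while Pabpc1 stood above Eif4g1 and Eif4g1 above Eef2 in 2 of 3. The 6 genes seen in 2 libraries and the 13 seen in 1 library had no peak above 5 units. The upper 4 genes took 57.1%, 65.8% and 69.8% of the family's height in replicates 1, 2 and 3 (64.2% ± 6.50, SD, n = 3). Across the 12, 9 and 12 genes with a peak in both members of a library pair (1 and 2, 1 and 3, 2 and 3), tallest heights correlated on the log2 scale at 0.944, 0.933 and 0.907 (Pearson). Their Spearman coefficients were 0.840, 0.919 and 0.788. The points are genes of the same libraries and not replicates, so no p is given.

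Set against the other 21819 protein-coding genes, the family was seen more often in each library. In replicates 1, 2 and 3, 20, 19 and 13 of its genes held a peak (24.7%, 23.5% and 16.05%), against 8.49%, 7.98% and 6.98% of the other genes. Peaks of 10 units or more made up 17.4% ± 5.30 of the family's peaks, against 8.17% ± 0.906 of the peaks of other genes (SD, n = 3). The family's share was higher in 3 of 3 libraries. It rests on 4 of 33, 5 of 29 and 5 of 22 peaks in replicates 1, 2 and 3. All 14 of these lay in Eif4a1, Pabpc1, Eif4g1 and Eef2. The median peak was 4 units in both classes in every library. Of the 55 family loci, 11 (20%) held a peak in all 3 libraries, against 10.5% of 5187 loci in other genes. The Eef2k locus among the 11 also lies in the span of Gm15774. No test was made of these contrasts, since 3 libraries allow an exact two-sided sign permutation p of 0.25 at the least.

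On average, the family's genes held more peaks per gene and per length. The median span was 15046 nt in the family and 17161 nt in other protein-coding genes, but the mean span was 25064 nt against 48060 nt, since some other genes are very long. Over the 3 libraries, the family held 84 peaks, or a mean of 1.04 per gene, against 0.335 per gene in other genes. The median was 0 peaks per gene in both classes, and Eef2 alone held 15 of the 84. Per 100 kb of summed span the family held 4.14 peaks, against 0.696 in other genes, a contrast that includes the shorter mean span of the family. Positions were compared next. Where a strand was known, 32.0% ± 6.21 of its peaks lay in the first 1000 nt, against 31.8% ± 0.805 in other genes (SD, n = 3). In spans of at least 10000 nt, the outer 10% (5% at each end) held 33.7% ± 13.2 of the family's peaks, against 38.4% ± 1.01 in other genes. Both differences were smaller than the spread of the family between libraries.

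**Figure D4:**
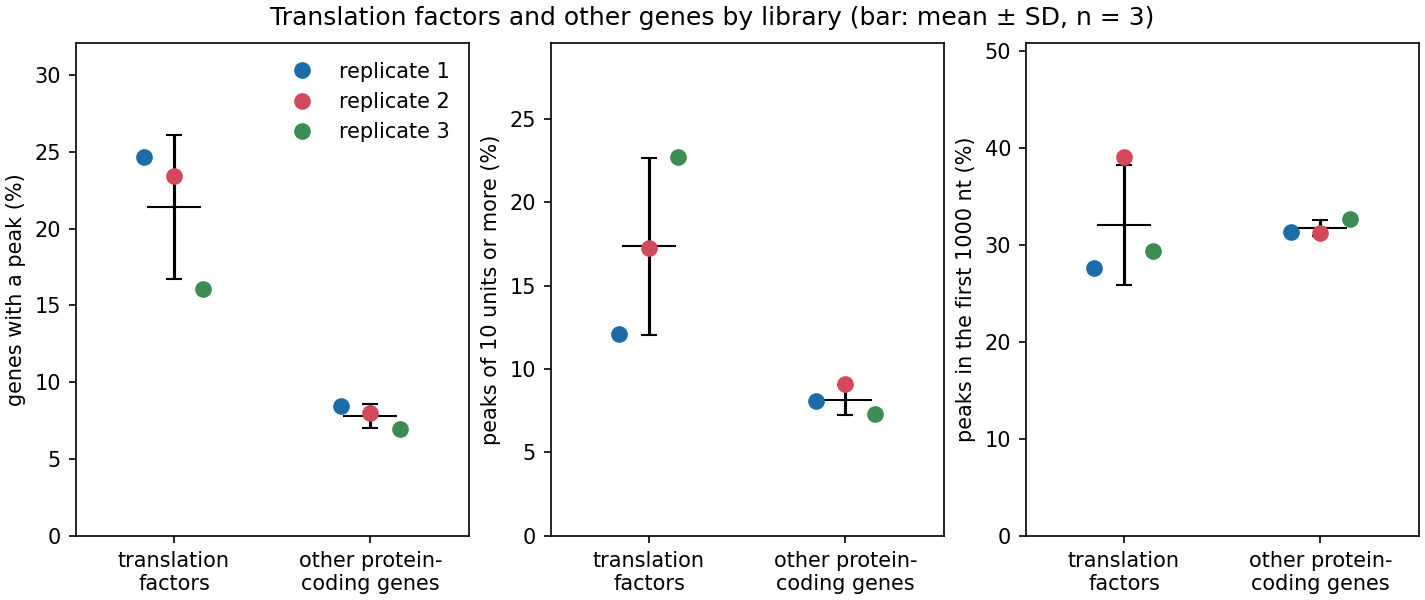
Translation factor genes (left in each panel) and other protein-coding genes (right): percent of genes with a peak, percent of peaks of 10 units or more, and percent of peaks in the first 1000 nt of genes of known strand. Points are libraries and bars the mean ± SD (n = 3). The classes lie apart in the first panel (21.4% ± 4.67 against 7.82% ± 0.765) and overlap in the last.

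None of the family's peaks lay on an annotated small RNA gene. Small nucleolar RNA, microRNA or small nuclear RNA genes, 23 in all and 18 of them snoRNA genes, lie within 14 genes of the family, 10 of which had a peak. None of the peaks of these host genes overlapped such a gene. The nearest were an Eif4g1 peak 166 nt from Snord66, an Eef2 peak 187 nt from Snord37 and an Eif4a2 peak 278 nt from Snord2. Nor did any peak fall in the 14 annotated pseudogenes and 1 non-coding locus whose symbols start in the same way, such as Eef1a1-ps1 and Eif4a-ps4. How the authors' alignment placed reads that match a gene and an unlisted processed copy was not analysed here.

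Other genes of translation, from 5 lists, were seen at 16 of 61 (26.2%), with 4 holding a locus shared by all 3 libraries, beside 14.1% and 2.11% of all protein-coding genes. The synthetases (15%) and the termination and mitochondrial lists (11.1% each) lay near that background. Regulators of initiation held the most, 10 of 20, and so most of the 16 genes seen. The lists were chosen with earlier results of these data known, so their shares are a description and add no separate evidence. Paip1, a partner of the poly(A)-binding protein, carried 7, 7 and 9 units at 1 shared locus, and Larp1, which binds 5′ TOP mRNAs, carried 9, 6 and 6 units. Atf4, the transcription factor of the integrated stress response, carried 7 and 4 units in replicates 1 and 2 and no peak in replicate 3. Of 20 cytosolic aminoacyl-tRNA synthetases, 3 held a peak: Vars with 10, 6 and 5 units, and Farsa and Mars1 with 3 units in 1 library each. In the termination and recycling list, 1 of 9 genes held a peak, Gspt1 (eRF3a) at 3 units in every library. Of 9 mitochondrial translation factors, Gfm1 alone held a peak, with 3 units in replicate 1. Pabpn1, the nuclear poly(A)-binding protein and the 1 of 3 genes seen in its list, reached 7, 4 and 3 units.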

How the data were processed

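The authors deposited 1 table with, for each of the 3 libraries, the chromosome, start, end and height of every peak. Heights are a signal: per the file headers they are normalized, and those of each library sum to 1. They are whole multiples of a step, with 100% of them no more than 0.05 of a step off, and were expressed in that step. No source says that the step stands for 1 read, so no count model was used and depth is unknown. Build mm10, STAR 2.4.0i and cutadapt 1.9 are listed, per the submitters' processing notes. Per the labels' protocols, a peak was called where a valley of some depth lay on both its sides. The depth required and other settings are not stated there. Starts were read as 0-based and are printed 1-based.

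Genes came from RefSeq for GRCm38.p6, the coordinates of mm10. A peak belonged to each gene whose span held its midpoint. Strand came from the RefSeq start windows, which matched 61 of the 81 genes. Exons were not used. Every gene of the family was named. From each other list up to 3 genes with the highest mean tallest peak were named, and of the markers Kit, Gata2, Cpa3 and Fcer1a. The members, lists and factor groups were chosen with earlier results of these data known. The labels name no separate animals, so the SD may be in part technical. Peak placement and sharing were tested on simulated peaks that always overlapped between libraries. That check could not detect false sharing, and peaks that narrowly miss each other were not simulated. Python 3.11.15, pandas 2.3.3 and numpy 2.4.6 were used. Sequences under other peaks are not reported here.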

Additional observations from a re-analysis of the deposited data

How the results depend on the processing

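Of 34 alternative values for the main results, 27 stayed close to the reported value. Close meant within the SD over libraries for a share or a height. The margin for a count was wide, so 20 genes in place of 28 counted as close. The 28 genes with a peak became 11 with heights of at least 5 units, 9 with a peak in all 3 libraries and 17 with at least 2 peaks. Most of the 28 thus rest on low or unrepeated peaks. Leaving out 1 library gave 20 to 27 genes. The 11 shared loci became 5 with heights of at least 5 units, and 12 when peaks within 100 nt were joined, which adds the tall Eif4a1 site. The family's share of peaks (1.02% ± 0.0851, SD, n = 3) became 1.14% with heights of at least 5 units. Its share of height (0.967% ± 0.0580, SD, n = 3) became 1.34% with the height in protein-coding spans as the total. The share of peaks in the outer part of long spans became 58.5% with 10% at each end, a zone of 20% of the span in place of 10%. Of the tallest heights of single genes, 44 of 45 alternative values stayed close, and Eef2k averaged 1.00 unit with only peaks in a single span, since its shared locus lies in Gm15774. No paired analysis was possible because the 3 libraries form 1 group. The lowest listed peaks have 2, 2 and 3 units in replicates 1, 2 and 3, so a gene without a peak may hold contacts below what was listed.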
